A study of Schizosaccharomyces pombe with 6 samples.

Results

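Ribosome biogenesis genes of fission yeast (Schizosaccharomyces pombe) were taken by name: every probe set with a single gene symbol in the platform annotation that starts with nop, utp, rrp, nog, nip, rrs, mrd, rok, dbp, ebp or has and a digit, except rrp6. The rule found 28 genes, each with 1 probe set, among 2936 S. pombe probe sets tested. By the same rule the current RefSeq annotation holds 69 such symbols, so the genes described here are a subset of the class. RNA of cultures in exponential growth on rich medium was read on biotin-based Affymetrix arrays, 2 for each of 3 groups. The groups are wild type (strain CG 209), fkh2delta, in which the forkhead factor gene fkh2 is deleted (strain CG 116), and fkh2-S2A, an allele of fkh2 whose change the labels do not spell out (strain CG 209). The labels do not say whether replicate arrays stem from separate cultures, and the p-values below therefore reflect array-to-array spread, which may be technical.

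Ribosomes are assembled in the nucleolus from rRNA that RNA polymerase I transcribes as a long precursor. Early factors gather on the small subunit part of this precursor as the SSU processome, other factors fold and process the large subunit part, small nucleolar RNPs modify the rRNA, and the exosome trims and degrades it. In yeasts the mRNAs of these factors are known to follow growth and nutrient supply. The roles below are those known from budding yeast (Saccharomyces cerevisiae). By these roles 11 of the 28 genes act in small subunit assembly, 12 in large subunit assembly, 2 in the exosome and 1, nop10, in the H/ACA class of small nucleolar RNPs, which makes pseudouridine in rRNA. The helicase gene dbp2 also has roles with mRNA and was kept apart. The probe set annotated as rrp12 points to the locus SPBC1105.01, while the symbol rrp12 now belongs to another locus, so that gene was given no role.

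Values are log2 signals, and each change is given as the log2 difference of 2 group means ± its standard error (SE) from limma, with Benjamini-Hochberg adjustment over all 2936 probe sets and a threshold of 0.05. The fkh2 signal was 4.34 and 4.05 in fkh2delta, with 7.53 and 7.39 in the wild type and 7.47 and 7.76 for fkh2-S2A, so it marked the deletion and did not tell wild type from fkh2-S2A. The fkh2delta strain also differs in ura4 signal (5.40 and 6.17 against 12.79 and 12.56 in wild type), so fkh2 and strain background cannot be told apart in that group. All 28 genes lay above the background level of 5.17 to 5.35 on all 6 arrays. A measure of RNA quality, the mean 3′ minus 5′ difference over 6 S. pombe control genes, was 1.27 on each wild-type array, 1.53 and 1.61 for the deletion and 1.34 and 1.24 for the allele. Its part in the changes below was not tested.

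**Figure D1:**
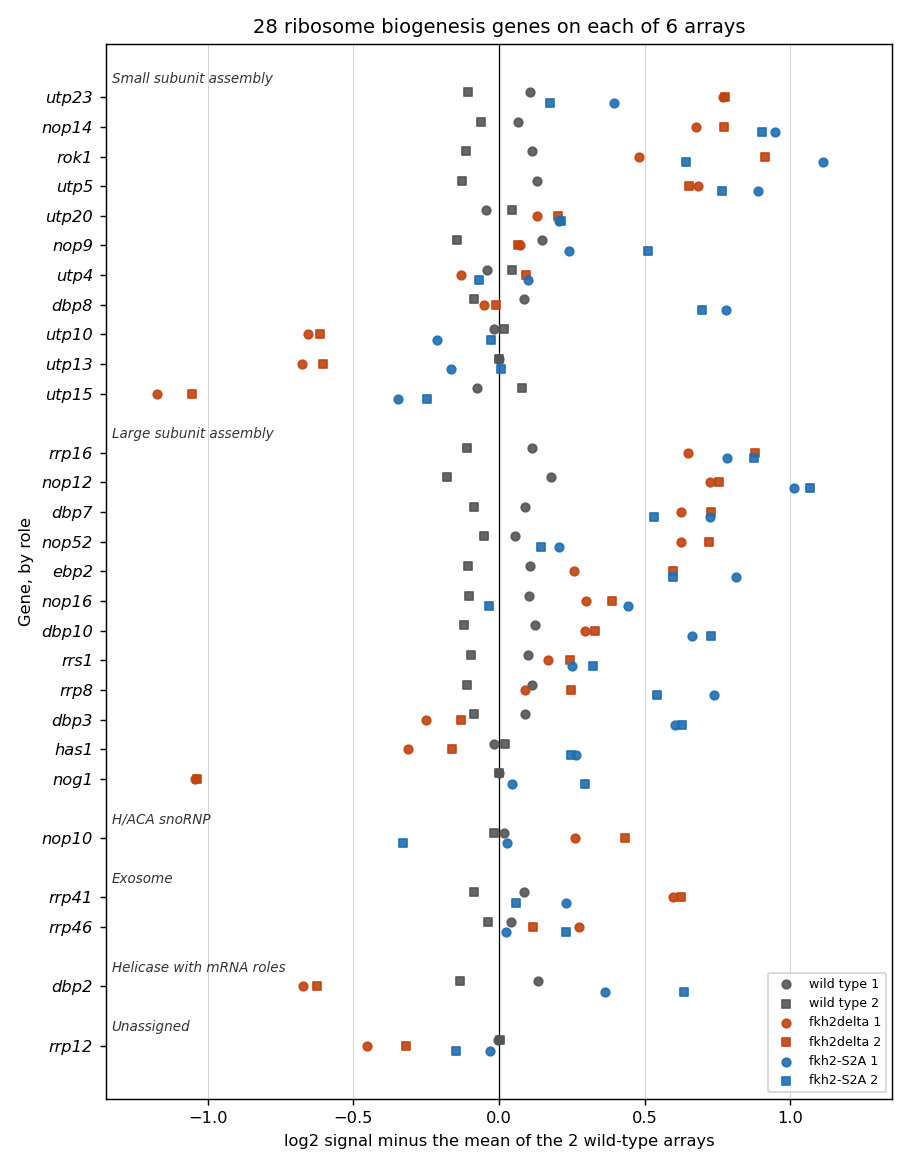
The log2 signal of each of the 28 genes on each of the 6 arrays, minus the mean of the 2 wild-type arrays (horizontal axis), with genes ordered by role; circles are replicate 1 and squares replicate 2. In fkh2delta the points of nog1 and utp15 lie farthest to the left, with mean log2 differences of -1.04 and -1.11, and in fkh2-S2A the mean of the 2 arrays is highest for nop12, at 1.04.

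Against wild type, the genes split in fkh2delta. Of the 28, 12 rose and 6 fell, and 10 did not pass. The rises made up 42.9% of the genes against 40.4 percent of all probe sets tested, and the falls 21.4% against 23.6 percent, so neither share stood apart from the background. The median change was 0.20, beside 0.16 over all probe sets. In RNA of whole cultures, fewer cells that express a gene and less of its RNA per cell cannot be told apart. Centring each array on its median brought the median of all probe sets to 0.03 and the split to 9 higher and 8 lower of 28, with 33.3% of all probe sets higher and 30.9% lower. Removing each array's trend with gene length also gave 9 and 8, with 31.8% of all probe sets higher and 32.9% lower. This setting took out the intercept of each array's fit as well as the slope. It therefore also centred the arrays, and what it changed cannot be credited to gene length alone. Quantile normalization gave 11 and 8, with 32.9% of all probe sets higher and 30.4% lower.

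Among the 11 small subunit genes of fkh2delta 4 rose, 3 fell and 4 did not pass, beside 40.4% of all probe sets higher and 23.6% lower. No role group was tested as a set. The falls were in genes whose products bind the precursor early as parts of the SSU processome. The signal of utp15, which encodes a member of the UTP-A subcomplex, was 11.08 and 11.23 for wild type, 9.98 and 10.10 for fkh2delta and 10.81 and 10.91 for fkh2-S2A. Both fkh2delta arrays lay far below the other 4, and the change of -1.11 ± 0.10 was 2.17-fold (adjusted p = 3.8e-05, limma). The utp10 gene, which encodes a large UTP-A protein, read 12.05 and 12.08 for wild type and 11.40 and 11.45 for fkh2delta. It fell by 0.64 ± 0.10 on the log2 scale (adjusted p = 0.000581, limma), with no overlap between the groups. The UTP-B gene utp13 read 11.51 on each wild-type array and 10.83 and 10.90 in fkh2delta, a change of -0.64 ± 0.10 (adjusted p = 0.000548, limma).

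Other genes of the same assembly went the opposite way in fkh2delta. The UTP-A gene utp5 read 10.28 and 10.02 for wild type and 10.83 and 10.80 for fkh2delta, and it rose by 0.67 ± 0.11. The fourth measured UTP-A gene, utp4, differed by -0.02 ± 0.11 and did not pass, so the 4 measured genes of that subcomplex did not move together. Nop14, an SSU processome protein, had a transcript signal of 9.76 and 9.63 for wild type and 10.37 and 10.47 for fkh2delta (0.72 ± 0.10). For utp23, which encodes a protein that acts in the release of a small nucleolar RNA from the precursor, the values were 11.45 and 11.24 for wild type and 12.11 and 12.12 for fkh2delta, a rise of 0.77 ± 0.12 that was the highest among the 28. The helicase gene rok1 rose by 0.70 ± 0.19 (adjusted p = 0.00961, limma), a call lost without wild-type replicate 2 (0.58, adjusted p = 0.0831, limma) and without fkh2delta replicate 2 (0.48, adjusted p = 0.0725, limma). The genes utp20 (0.16 ± 0.09), nop9 (0.07 ± 0.13) and dbp8 (-0.03 ± 0.10) did not pass.

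Of the 12 large subunit genes 6 rose in fkh2delta, 1 fell and 5 did not pass, beside 40.4% of all probe sets higher and 23.6% lower. The fall was in nog1, which encodes a GTPase of the pre-60S particle. Its signal was 12.76 on each wild-type array, 11.72 on each fkh2delta array and 12.80 and 13.05 in fkh2-S2A. The fall by 1.04 ± 0.11 on the log2 scale (adjusted p = 6.65e-05, limma) was 2.06-fold and far larger than the gap between the 2 arrays of either group.

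The rises among the large subunit genes were smaller than that fall. The gene rrp16, also named nop53, which encodes a factor that brings the exosome's helper helicase to the pre-60S particle, rose from 11.41 and 11.19 to 11.95 and 12.17 (0.76 ± 0.12). The RNA-binding protein gene nop12 rose from 10.56 and 10.21 to 11.11 and 11.14 (0.74 ± 0.12), and the helicase gene dbp7 from 9.39 and 9.21 to 9.92 and 10.03 (0.67 ± 0.11). For nop52, which encodes the counterpart of budding yeast Rrp1, the values went from 12.10 and 11.99 to 12.67 and 12.77 (0.67 ± 0.10). In each of these 4 genes both fkh2delta arrays lay above both wild-type arrays. As they have the largest rises past the test in this role, that separation is no separate support. The calls of ebp2 (0.43 ± 0.14) and dbp10 (0.31 ± 0.11) were less stable, and each was lost without wild-type replicate 2 (0.32 and 0.19) or without fkh2delta replicate 2 (0.26 and 0.29); that of dbp10 was also lost without fkh2delta replicate 1 (0.33). Median centring lowered ebp2 to 0.30 and dbp10 to 0.19, and both calls ended. The genes nop16 (0.34 ± 0.15), rrs1 (0.20 ± 0.10), rrp8 (0.17 ± 0.12), dbp3 (-0.19 ± 0.10) and has1 (-0.24 ± 0.10) did not pass.

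The remaining groups were small. Rrp41 and Rrp46 are ring subunits of the exosome. The rrp41 signal rose from 11.23 and 11.06 in wild type to 11.74 and 11.77 in fkh2delta (0.61 ± 0.11, adjusted p = 0.00103, limma), whereas rrp46 differed by 0.19 ± 0.11 and did not pass. The nop10 call (0.35 ± 0.13, adjusted p = 0.0428, limma) was weak: the change was 0.22 after median centring and 0.09 with the length trend removed, and it did not pass when any 1 array of the 2 groups was left out (0.26 to 0.43). The helicase gene dbp2 fell by 0.65 ± 0.13 and the gene annotated as rrp12 by 0.39 ± 0.10, the latter a call lost without fkh2delta replicate 1 (-0.32, adjusted p = 0.0777, limma).

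**Figure D2:**
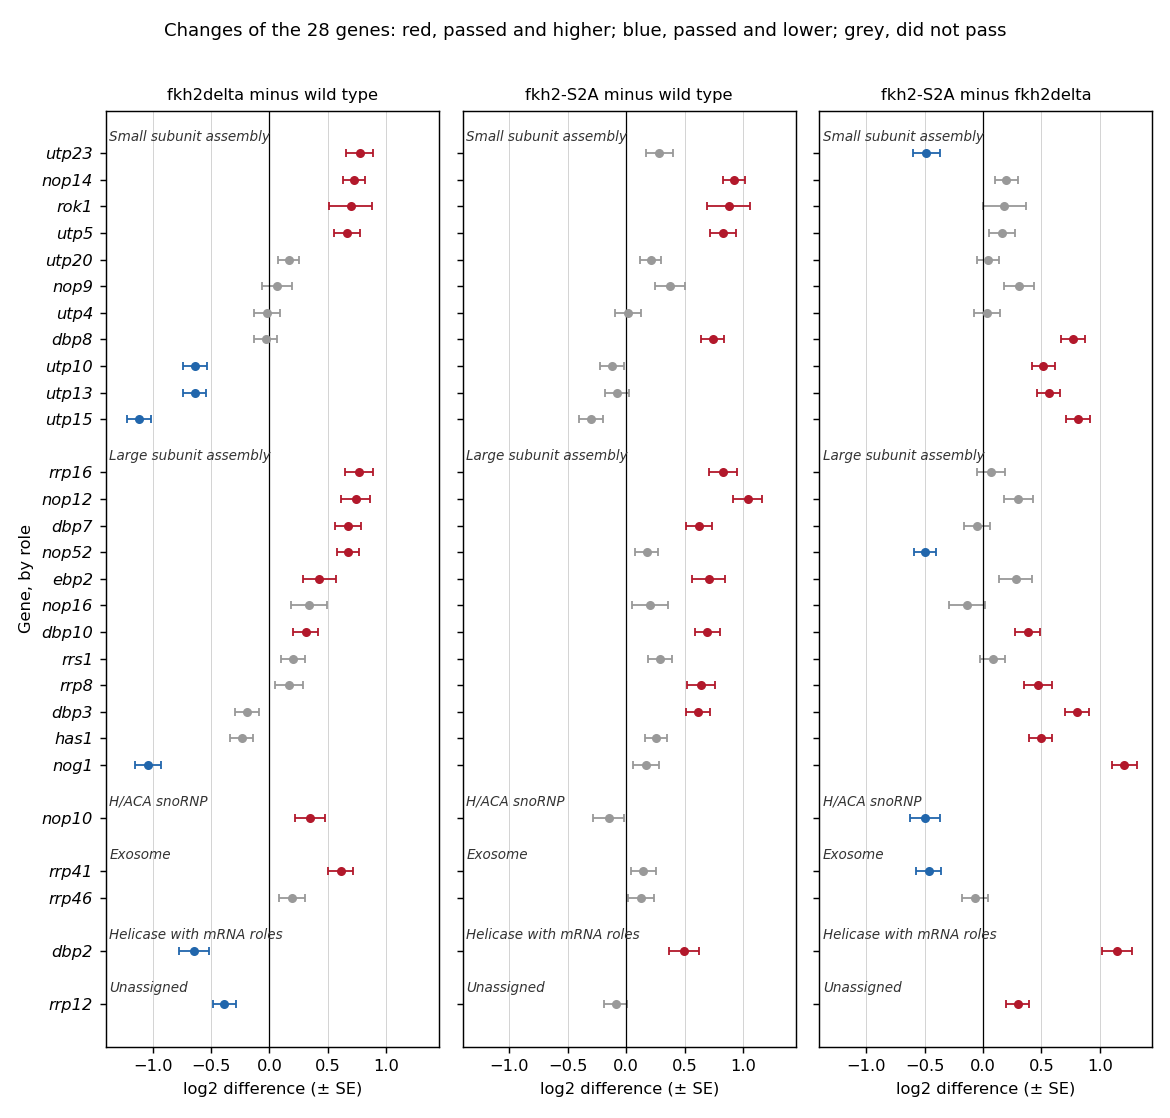
Log2 differences of the 28 genes (points) with the SE of the limma fit (bars) in the 3 comparisons, in the same order of genes; red points passed and were higher, blue points passed and were lower, grey points did not pass. Red and blue points occur together in fkh2delta (12 and 6), and 12 red and 0 blue points occur in fkh2-S2A.

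In fkh2-S2A 12 of the 28 genes rose against wild type, 0 fell and 16 did not pass (limma). The change was above 0 in 23 of the 28, beside 1618 of all 2936 probe sets. At an unadjusted p below 0.05 there was 1 lower gene, utp15, and with a mean-variance trend in limma there were 15 higher and 0 lower. In that trend fit 1092 of all probe sets passed, in either direction. The share over all probe sets at the unadjusted threshold was not computed. The rises made up 42.9% of the genes, against 23.5 percent of all probe sets tested, and 9.84 percent of all probe sets fell. The median change was 0.29, beside 0.04 over all probe sets. After median centring 12 rose and 1, utp15, fell, with 19.1% of all probe sets higher and 17.0% lower. With the length trend removed 12 rose and 2, utp10 and utp15, fell, with 17.3% of all probe sets higher and 16.6% lower.

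Of these 12 rises 7 were in large subunit genes, which had a median change of 0.62 over all 12 members of that role. Over all probe sets 23.5% rose, and the median was 0.04. The highest was nop12, at 10.56 and 10.21 for wild type and 11.40 and 11.45 for fkh2-S2A, a change of 1.04 ± 0.12 or 2.06-fold (adjusted p = 0.00126, limma). Next came rrp16, at 12.08 and 12.17 in fkh2-S2A (0.83 ± 0.12), ebp2, at 11.79 and 11.57 (0.71 ± 0.14), and dbp10, at 10.59 and 10.65 (0.69 ± 0.11). All 4 genes had both fkh2-S2A arrays above both wild-type arrays. They were named for the largest rises past the test, so this separation is no separate support. Its share over all probe sets was not computed. The gene rrp8, which encodes a methyltransferase of large subunit rRNA, was 9.87 and 9.65 for wild type and 10.50 and 10.30 for fkh2-S2A (0.64 ± 0.12). The helicase genes dbp7 (0.63 ± 0.11) and dbp3 (0.61 ± 0.10) rose as well. The other 5, rrs1 (0.29 ± 0.10), has1 (0.26 ± 0.10), nop16 (0.20 ± 0.15), nop52 (0.17 ± 0.10) and nog1 (0.17 ± 0.11), did not pass.

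Of the 11 small subunit genes 4 rose in fkh2-S2A and 7 did not pass, beside 23.5% of all probe sets higher and 9.84% lower. Nop14 read 10.64 and 10.60 in fkh2-S2A against 9.76 and 9.63 in wild type (0.92 ± 0.10, adjusted p = 0.000972, limma), the lowest adjusted p of the 28 in this comparison. The rok1 signal was 10.23 and 10.01 for wild type and 11.23 and 10.76 for fkh2-S2A (0.88 ± 0.19), so the 2 fkh2-S2A arrays differed more than for most genes. The others that rose were utp5, at 11.04 and 10.92 (0.83 ± 0.11), and the helicase gene dbp8, at 8.74 and 8.57 for wild type and 9.43 and 9.35 for fkh2-S2A (0.74 ± 0.10). The values that did not pass were nop9 (0.38 ± 0.13), utp23 (0.28 ± 0.12), utp20 (0.21 ± 0.09), utp4 (0.01 ± 0.11), utp13 (-0.08 ± 0.10), utp10 (-0.12 ± 0.10) and utp15 (-0.30 ± 0.10). Of the 7 utp genes 1 rose, where 23.5% of all probe sets did. In the other groups dbp2 rose by 0.50 ± 0.13, and rrp41 (0.14 ± 0.11), rrp46 (0.13 ± 0.11), nop10 (-0.15 ± 0.13) and the gene annotated as rrp12 (-0.09 ± 0.10) did not pass.

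The helicase genes are 7 of the 28: dbp2, dbp3, dbp7, dbp8, dbp10, has1 and rok1 encode DEAD-box proteins, which use ATP to unwind or remodel RNA. This grouping was made after the values were seen, and it holds only genes that the symbol rule takes. Another DEAD-box gene, drs1, belongs to the list of other assembly factors below. It differed by 0.04 ± 0.09 in fkh2-S2A and -0.17 ± 0.09 in fkh2delta and passed in neither. In fkh2-S2A 6 of the 7 rose and has1 did not pass, with a median of 0.63, where 23.5% of all probe sets rose. In fkh2delta 3 rose, 1 fell and 3 did not pass, with a median of -0.03, where 40.4% of all probe sets rose and 23.6% fell.

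The wild-type arrays themselves differed across these genes. The signal was lower on wild-type replicate 2 than on replicate 1 in 21 of the 28, with a median difference of -0.17, beside -0.02 over all probe sets, of which 54.0% were lower. Each of the 12 genes that rose in fkh2-S2A was among the 21, with a median difference of -0.22, while 9 of the other 16 were lower, with a median of -0.02. The same 2 arrays entered the comparison, so the 2 observations are not independent. Without wild-type replicate 2 there were 8 rises in fkh2-S2A, and ebp2 (0.60), rok1 (0.76), rrp8 (0.53) and dbp2 (0.36) no longer passed, with adjusted p from 0.0556 to 0.147 (limma). The count over all probe sets fell from 978 to 287 in that fit, and without wild-type replicate 1 there were 14 rises. The dbp2 call was also lost without fkh2-S2A replicate 2 (0.36, adjusted p = 0.0977, limma). In nop12 the 2 wild-type arrays differ by 0.36, less than the distance from the higher of them to either fkh2-S2A array. The fkh2delta arrays also differed: 25 of the 28 genes were higher on replicate 2 than on replicate 1. Their median difference was 0.08, beside 0.03 over all probe sets, of which 40.8% were lower. Of the 28 genes on the fkh2-S2A arrays, 13 were higher and 15 lower on replicate 2.

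**Figure D3:**
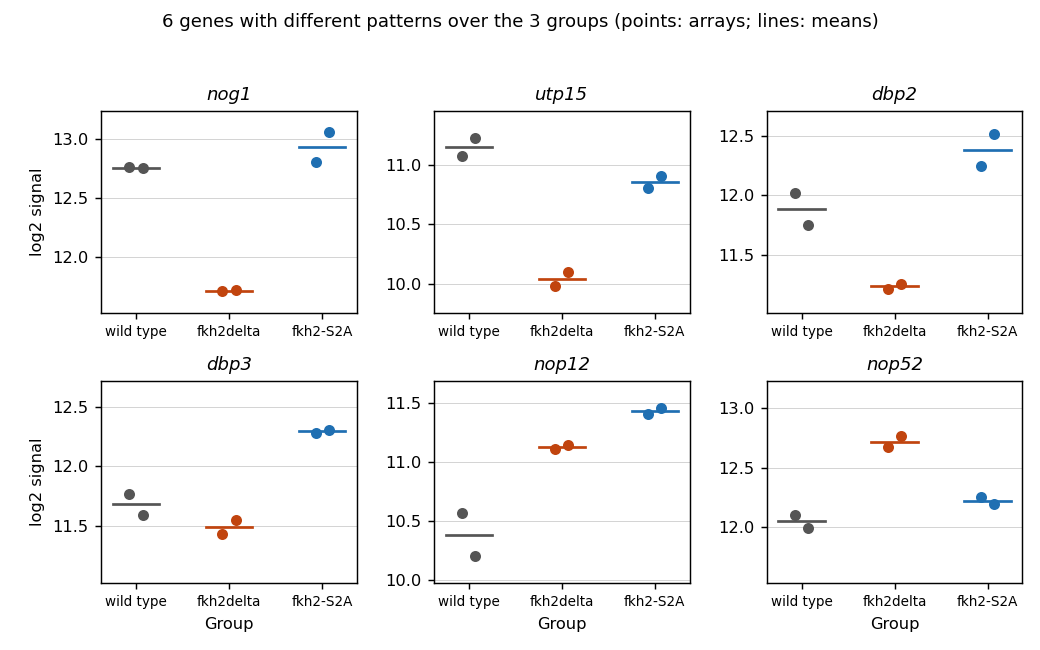
Log2 signal (vertical axis) of 6 genes in the 3 groups, with a point for each array and a line at the mean of each group; the axes span the same range of log2 units in each panel. The nog1, utp15 and dbp2 signals are lowest in fkh2delta, nop52 is highest there, and dbp3 is highest in fkh2-S2A.

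The direct comparison of the mutants asked which genes differ between the allele and the deletion. These groups also differ in strain (CG 209 and CG 116). Their ura4 signals were 12.83 and 12.85 for fkh2-S2A and 5.40 and 6.17 for fkh2delta. Here too, fkh2 and strain background cannot be told apart. Of the 28, the allele was above the deletion in 11 and below it in 4, and 13 did not pass. That is 39.3% higher, against 22.5 percent of all probe sets, and 14.3% lower, against 26.6 percent. The median was 0.24, beside -0.02 over all probe sets. All 3 comparisons share arrays in pairs, so they are not independent of each other.

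The 3 largest differences, those of nog1, dbp2 and utp15, were in genes that fell in the deletion. Nog1 was higher in fkh2-S2A by 1.21 ± 0.11 or 2.31-fold (adjusted p = 4.48e-05, limma). The dbp2 signal was 12.02 and 11.75 for wild type, 11.21 and 11.26 for fkh2delta and 12.24 and 12.52 for fkh2-S2A. Its 3 groups did not overlap, and the allele and the deletion differed by 1.15 ± 0.13 or 2.21-fold (adjusted p = 0.000145, limma). It was the sole gene of the 28 that passed in opposite directions against wild type. Over all probe sets 22, or 0.75%, were higher in fkh2-S2A and lower in fkh2delta. The dbp2 rise in fkh2-S2A was 0.36 without wild-type replicate 2 and also without fkh2-S2A replicate 2, and the call was lost in both fits. The SSU processome genes utp15 (0.82 ± 0.10), utp13 (0.56 ± 0.10) and utp10 (0.52 ± 0.10) were also higher in the allele than in the deletion, and none of these 3 passed for fkh2-S2A against wild type on the deposited values. The gene annotated as rrp12, which also fell in the deletion, was higher in the allele than in the deletion by 0.30 ± 0.10.

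Of the other genes that were higher in the allele than in the deletion, dbp3, dbp8 and rrp8 had risen in the allele and did not pass in the deletion, dbp10 had risen in both, and has1 passed against wild type in neither. Over all probe sets 136, or 4.63%, rose in the allele and did not pass in the deletion. The helicase gene dbp3 was 11.77 and 11.59 for wild type, 11.43 and 11.55 for fkh2delta and 12.28 and 12.31 for fkh2-S2A, and the mutants differed by 0.81 ± 0.10 (adjusted p = 0.000298, limma). For dbp8 the difference was 0.77 ± 0.10 and for has1 0.49 ± 0.10. Some calls did not hold when 1 array was left out, though the differences kept their sign. These were the calls of rrp8 (0.47 ± 0.12; 0.39 without fkh2delta replicate 1, 0.37 without fkh2-S2A replicate 1), dbp10 (0.38 ± 0.11; 0.36 and 0.40 without fkh2delta replicates 1 and 2, 0.35 without fkh2-S2A replicate 2) and the gene annotated as rrp12 (0.23 and 0.36 without fkh2delta replicates 1 and 2, 0.24 without fkh2-S2A replicate 1). The call of rrp12 was also lost with a mean-variance trend, with all probe sets other than controls in the fit, with the replicate block and with the length trend removed.

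Genes lower in the allele than in the deletion were nop52 (-0.50 ± 0.10, adjusted p = 0.00268, limma), nop10 (-0.50 ± 0.13), utp23 (-0.49 ± 0.12) and rrp41 (-0.46 ± 0.11). These are the 4 genes of the 28 that rose in fkh2delta and did not pass in fkh2-S2A, as did 20.8% of all probe sets. The nop10 difference was -0.09 with the length trend removed, and it did not pass without fkh2delta replicate 2 (-0.41) or fkh2-S2A replicate 2 (-0.32). That of utp23 was lost without fkh2-S2A replicate 2 (-0.38, adjusted p = 0.0506, limma).

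A set of 8 genes rose in both mutants against the shared wild-type arrays: dbp7, dbp10, ebp2, nop12, nop14, rok1, rrp16 and utp5. Over all probe sets 531, or 18.1%, did so. Of the 8, dbp10 differed between the mutants, and the differences of the other 7, from -0.05 to 0.30, did not pass, which does not show that they are equal. The SE of these 7 differences lay between 0.10 and 0.19. Over the 28, 6 genes passed in none of the 3 comparisons: nop9, nop16, rrp46, rrs1, utp4 and utp20. That is 21.4%, against 24.5% of all probe sets.

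**Figure D4:**
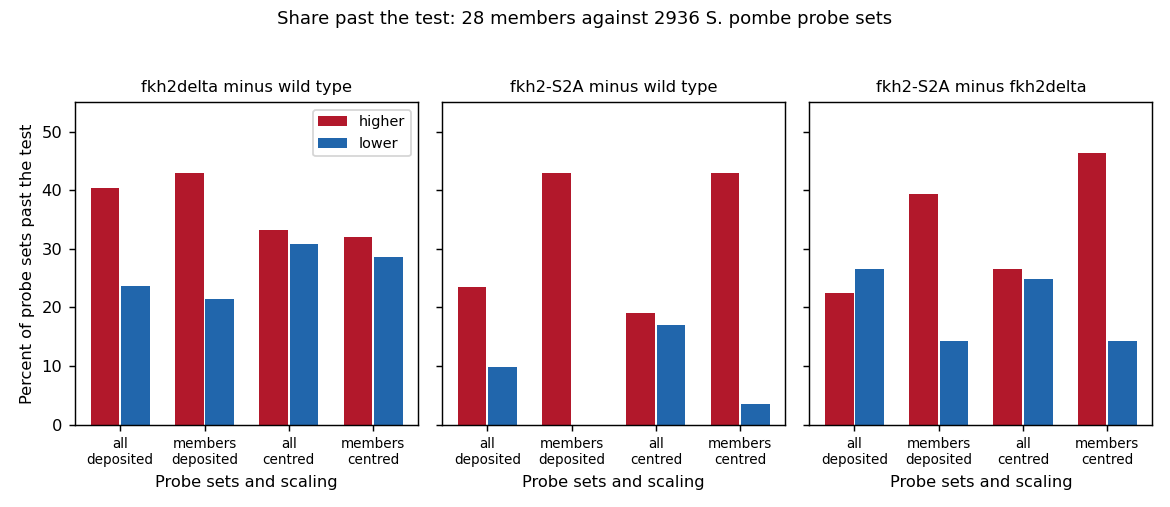
Percent of probe sets past the test and higher (red) or lower (blue), for all 2936 S. pombe probe sets and for the 28 genes, on the deposited values and after median centring. In fkh2delta the 28 genes resemble all probe sets (42.9% against 40.4% higher), and in fkh2-S2A they are more often higher (42.9% against 23.5%).

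Gene length was set beside the changes because the arrays differ in a trend with it. The slope of an array's deviation per doubling of gene length was -0.034 and -0.0095 for the wild-type arrays, -0.074 and -0.061 for fkh2delta and 0.070 and 0.11 for fkh2-S2A. The 28 genes run from 394 bases (nop10) to 7741 bases (utp20), with a median of 2072 bases beside 1876 bases over all probe sets with a length. Across the 28 genes the change in fkh2delta went with length at Pearson r = -0.34 and Spearman rho = -0.40, and that in fkh2-S2A at 0.03 and -0.03. Across 2917 probe sets the same values were -0.05 and -0.07 in fkh2delta and 0.25 and 0.24 in fkh2-S2A. These describe genes measured on the same arrays, which are not independent replicates. The longest gene, utp20, differed by 0.16 ± 0.09 and 0.21 ± 0.09 in fkh2delta and fkh2-S2A and passed in neither.

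**Figure D5:**
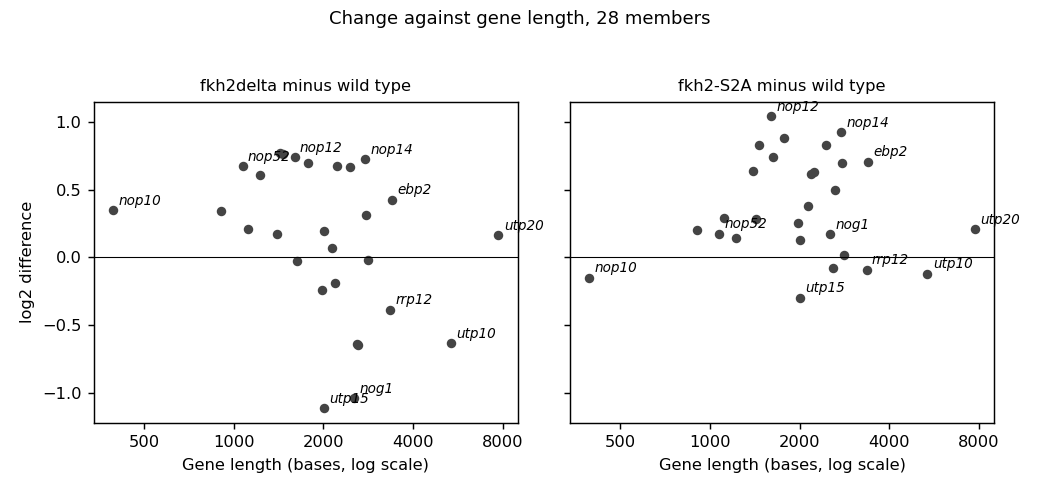
Log2 difference against wild type (vertical axis) and gene length in bases (horizontal axis, log scale) for the 28 genes in fkh2delta and in fkh2-S2A. In fkh2delta the genes that fell lie at 2006 bases (utp15) or more, and in fkh2-S2A nop12, at 1600 bases, is highest.

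Other genes of the pathway were read from a list of ribosome assembly factors whose names the rule does not take, of which 27 had a probe set. In fkh2delta 13 rose and 5 fell, with a median of 0.28, beside 40.4% of all probe sets higher, 23.6% lower and a median of 0.16. The highest were lsg1 (0.97 ± 0.09), which encodes a GTPase of late large subunit maturation, and noc3 (0.88 ± 0.12), whose product also acts in large subunit maturation. In fkh2-S2A 14 rose and 0 fell (limma; 0 lower at an unadjusted p below 0.05, 1 lower with a mean-variance trend), with a median of 0.29, beside 23.5% of all probe sets higher, 9.84% lower and a median of 0.04. Here the highest were esf1 (0.97 ± 0.15) and the pre-60S factor gene mak16 (0.91 ± 0.13).

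RNA polymerase I genes, with the factors that start or end its transcription, made up a second list of 15. In fkh2delta 7 rose and 3 fell, beside 40.4% and 23.6% of all probe sets. The largest fall was that of rpa2 (-0.98 ± 0.10), which encodes the second-largest subunit, and the largest rise that of the initiation factor gene rrn7 (0.44 ± 0.09). In fkh2-S2A 4 rose and 0 fell (limma; 2 lower at an unadjusted p below 0.05 and 2 lower with a mean-variance trend), with reb1, which encodes a termination factor of rRNA genes, at 0.91 ± 0.10 and the subunit gene rpa49 at 0.62 ± 0.12. Over all probe sets 23.5% rose and 9.84% fell there. The median of this list was 0.35 in fkh2delta and 0.19 in fkh2-S2A.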

How the data were processed

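The authors deposited log2 signals, 1 value for each probe set on each array; the base was read from the range of the deposited values. How they summarised, corrected and normalized the arrays is not stated in the labels used here. The median of the S. pombe probe sets ran from 10.08 to 10.23 over the 6 arrays, and the values were used as deposited. Probe sets were matched to S. pombe genes of the RefSeq assembly ASM294v3 by Entrez identifier or symbol, for names and gene length only: of 10928, 2936 matched and were tested. The background level was the 95th percentile of 2601 probe sets listed for other genes. limma 3.58.1 (R 4.3.3) fitted group means to all 6 arrays at once (3 residual and 5.73 prior degrees of freedom), two-sided, and the steps were tested on simulated data. Having 2 arrays for each group limits precision. The 28 genes, the lists and the rule for named genes were chosen with earlier results of these data known: per role the largest changes past the test, at most 2 genes per list and comparison, and all 28 genes with values. Levels of different probe sets were not compared. Alternatives were quantile normalization, median centring, a filter on dim probe sets, all non-control probe sets, other eBayes priors, a fit on 2 groups, a replicate block, removal of the length trend (slope and intercept) and each array left out. Promoter motifs and sequences were not analysed here.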

Additional observations from a re-analysis of the deposited data

How the results depend on the processing

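Of 45 gene calls among the 28 genes in the 3 comparisons, 31 held in each of 15 other settings, 14 were lost in at least 1 and 0 changed sign. In fkh2delta the median change of the genes was 0.0758 after median centring and 0.0707 with the length trend removed, against 0.20, and it ran from 0.17 to 0.29 when 1 array was left out; the higher calls ran from 8 to 13 and the lower from 5 to 6. In fkh2-S2A there was 1 lower call after median centring and there were 2 with the length trend removed, against 0. Leaving out 1 array gave a median of 0.24 to 0.39, 8 to 14 higher calls, 0 lower ones and 287 to 921 calls over all probe sets, against 978; the lowest count was without wild-type replicate 2. In the direct comparison, leaving out 1 array gave 2 lower calls (without fkh2-S2A replicate 2) to 5, 8 to 12 higher calls and a median of 0.16 to 0.31. Median centring gave it 13 higher and 4 lower calls, with 26.5% of all probe sets higher and 24.8% lower. Removal of the length trend gave 12 and 3, with 27.9% and 23.7% of all probe sets. Quantile normalization gave 12 and 4, with 27.5% and 24.5% of all probe sets. A group left with 1 array was assumed to vary like the others. Leaving out an array of the group not compared gave the same result as the fit on 2 groups. For each comparison the 15 settings are therefore not all distinct. The causes were not tested. Deviations of same-numbered arrays correlated at -0.27 to -0.09. With 2 arrays in each group the deviations mirror each other, so the values are the same for both replicate numbers. They cannot tell whether arrays of different groups shared a batch. With the replicate number as a block the calls were 10 higher and 6 lower in fkh2delta, 12 and 0 in fkh2-S2A and 10 and 4 in the direct comparison; dbp10 and nop10 in fkh2delta and rrp12 in the direct comparison were lost. Left out of the 28, dbp2 and rrp12 each changed a count of calls by at most 1; leaving out rrp12 was chosen after seeing the data. No low value needed a pseudocount, and none of the 28 genes was below background.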

Other observations

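The arrays also carry control probe sets for S. pombe rRNA, the product that these genes help to make. They stayed out of the fit, and the labels do not say how rRNA came to be labelled. The 18S 5′ control read 12.56 and 12.55 in wild type, 11.89 and 12.26 in fkh2delta and 12.59 and 12.76 in fkh2-S2A, so both fkh2delta arrays were the lowest. The 18S middle control read 11.95 and 11.91 for wild type, and the fkh2delta arrays, at 11.49 and 11.99, lay on either side of them. It was 11.95 and 12.18 in fkh2-S2A. The 28S 5′ control went the other way, with 12.47 and 12.22 in wild type, 12.65 and 12.70 in fkh2delta and 12.49 and 12.46 in fkh2-S2A. For the 28S middle control the groups overlapped, with 11.12 and 11.04 for wild type, 11.07 and 11.24 for fkh2delta and 11.11 and 11.35 for fkh2-S2A. For the 18S 3′ control, wild type read 11.47 and 11.44, fkh2delta 10.95 and 11.43 and fkh2-S2A 11.51 and 12.15. The 28S 3′ control was 12.41 and 12.25 for wild type, 12.68 and 12.87 for fkh2delta and 12.46 and 12.81 for fkh2-S2A. In both 3′ controls and in the 18S 5′ control the 2 fkh2-S2A arrays lay above the 2 wild-type arrays. In each of these controls the gap between the 2 fkh2-S2A arrays exceeded the distance of their mean from wild type. The 5.8S control read 13.37 on each wild-type array, 12.85 and 13.38 in fkh2delta and 12.94 and 13.24 in fkh2-S2A. Both fkh2-S2A arrays lay below wild type there, and the spreads within the mutants again exceed their distance from wild type.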
